A study of Mus musculus with 6 samples.

Results

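Transcripts of 6 genes of the pluripotency programme, Pou5f1, Sox2, Lin28a, Lin28b, Sall4 and Dnmt3b, were followed through an eCLIP experiment on mouse Gtsf1 (Asterix), a zinc-finger protein needed for piRNA-guided silencing of transposons, in P19 cells. P19 is a mouse embryonal carcinoma line. The genes were taken by name, not by their values, and they account for 549 of the 986256 exon, intron and pre-mRNA features with reads, and for 6 of 20901 genes. Reads were summed per gene over its exon features, its intron features and its pre-mRNA feature, which gave 16 sums out of 51500.

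All 6 libraries came from cells given 30 µg of a pEF plasmid in which the EF-1alpha promoter drives Gtsf1 with a C-terminal TEV-Strep tag, and cells were taken 48 h after this transient transfection. No library came from untransfected cells or from a pull-down without the tagged protein, and endogenous and transfected Gtsf1 reads were not separated. Crosslinked cells received ultraviolet light of 254 nm at 400 mJ, which joins protein to RNA, and lysates were treated with RNase I. The crosslinked input and the crosslinked pull-down on Strep-binding beads had 2 libraries each, and the non-crosslinked input and pull-down had 1 each. The labels do not say whether the replicates came from separate cultures, so p-values measure only the spread between these libraries, which may be technical.

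Library totals ranged from 13168593 to 18418166 reads, and between 6.99% and 14.4% of reads had no annotation. Values are RPM, which relate a feature's reads to the depth of its library, unannotated reads included, and 1 read was worth 0.0543 to 0.0759 RPM. Exon sums of Gtsf1, the gene that was pulled down, stood at 44.4 and 42.3 RPM in the crosslinked inputs, and pull-down from crosslinked cells gave 104 and 240 RPM. The rise was 2.08 on the log2 scale (SE 0.28, adjusted p = 0.000189 by edgeR's quasi-likelihood test), while the non-crosslinked pull-down had 15.4 RPM against 21.8 RPM in its input. Exons took 5.29% to 6.06% of all reads in the crosslinked libraries and introns 13.4% to 16.3%. Both shares were lower without crosslinking, at 4.16% for exons and 9.09% for introns in the input and 3.58% and 6.12% in its pull-down.

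Pou5f1 (Oct4) and Sox2 are transcription factors that bind DNA together and hold pluripotent cells in an undifferentiated state. Sall4 is a zinc-finger factor of the same network, and Dnmt3b is a DNA methyltransferase that sets new methylation in the early embryo. Lin28a and Lin28b are RNA-binding proteins that are abundant in undifferentiated cells and block the maturation of let-7 microRNAs. Embryonal carcinoma cells share much of this programme with embryonic stem cells.

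The transcripts of all members but Sall4 were well represented in the inputs, and no sum passed the test for enrichment with Gtsf1. Of the 16 sums, 12 averaged 1 RPM or more in the 4 crosslinked libraries and were tested, and none was called higher or lower in the crosslinked pull-down (edgeR, adjusted p under 0.05). Over all 20557 sums tested, 4.93% were called higher and 3.07% lower. With no adjustment, 0 of the 12 sums passed 0.05 in the higher direction and 3 in the lower (Lin28a exon, Lin28b intron and Dnmt3b intron), against 7.40% and 17.2% of all tested sums, and DESeq2 called none. With identical features counted once, Dnmt3b introns did not pass it (unadjusted p = 0.0716 by edgeR). With all reads as library sizes, and with limma on log2(RPM + 1), 2 were called lower (Lin28b and Dnmt3b introns), while the share of all tested sums called lower was 8.96% and 8.99% under these settings. The highest upper 95% bound among the 12 was 1.26-fold, for Lin28a introns, so that an enrichment above this size lies outside the interval of each of the 12. This holds with annotated reads as library sizes only. Lin28a introns had a log2 ratio of 0.21 with TMM factors (SE 0.14) and with DESeq2 (SE 0.21), and their upper bound lies higher there.

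**Figure D1:**
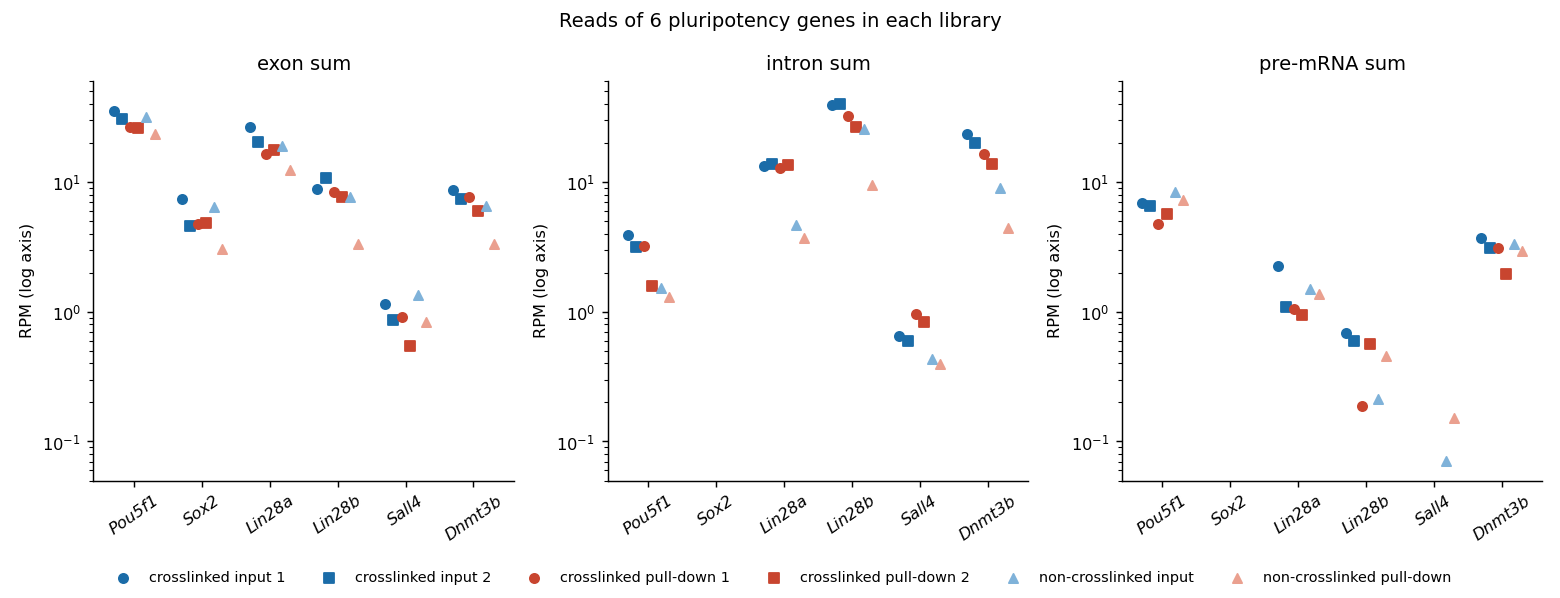
RPM (log axis) of the exon, intron and pre-mRNA sums of the 6 genes in each of the 6 libraries, with 1 point per library. Sox2 has an exon sum only, and the crosslinked libraries, which had no Sall4 pre-mRNA read, are not drawn there; Pou5f1 exons were between 23.2 and 35.4 RPM in every library and Sall4 sums were at most 1.34 RPM.

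Pou5f1 exons had 35.4 and 30.4 RPM in the crosslinked inputs, 26.5 and 26.3 RPM in the crosslinked pull-downs, 31.4 RPM in the input without crosslinking and 23.2 RPM in its pull-down. Both crosslinked pull-downs lay below both inputs, as did those of 45.0% of all tested exon sums. The mean was 32.9 ± 3.60 RPM in the inputs and 26.4 ± 0.147 RPM in the pull-downs (SD, n = 2 each), and the fitted ratio was 0.855-fold (95% interval 0.709 to 1.03, adjusted p = 0.284 by edgeR). Without crosslinking the ratio was 0.739 (95% interval 0.637 to 0.857 from counting error only). Its input level was high among genes, since 2.12% of the 8495 tested exon sums stood above it.

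Pou5f1 introns had 3.89 and 3.15 RPM in the crosslinked inputs, 3.23 and 1.59 RPM in the crosslinked pull-downs, 1.52 RPM in the input without crosslinking and 1.30 RPM in its pull-down. The groups overlapped, because pull-down replicate 1 lay between the inputs (0.730-fold, 95% interval 0.475 to 1.12, adjusted p = 0.345 by edgeR). The log2 ratio was -1.05 without pull-down replicate 1 and -0.046 without pull-down replicate 2, neither past the threshold. Its pre-mRNA feature had 6.93 and 6.57 RPM in the inputs and 4.72 and 5.62 RPM in the pull-downs, with no overlap, and 8.34 and 7.21 RPM in the non-crosslinked input and pull-down (adjusted p = 0.323 by edgeR). The files do not say what a pre-mRNA feature covers. Among genes with at least 100 exon reads, 98.3% of 7721 genes with intron reads had one, and 9.58% of 240 genes without intron reads.

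Sox2, a gene of a single exon, had an exon sum alone. It had 7.41 and 4.58 RPM in the crosslinked inputs, 4.77 and 4.83 RPM in the crosslinked pull-downs, 6.36 RPM in the input without crosslinking and 3.04 RPM in its pull-down. The crosslinked groups overlapped, since input replicate 2 was below both pull-downs. The fitted ratio was 0.858-fold (95% interval 0.617 to 1.19, adjusted p = 0.565 by edgeR), and without input replicate 1 it turned to a log2 value of 0.15. The non-crosslinked ratio was 0.478 (95% counting interval 0.321 to 0.701), and 9.37% of the tested exon sums had a lower non-crosslinked value.

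Lin28a and Lin28b bind the terminal loop of let-7 precursors, in which the letters GGAG are their known contact. To show the RNA these proteins act on, the hairpins and the 5p mature strands are given for the let-7 genes with the most reads in these libraries, 5′ to 3′ from RefSeq (GRCm38.p6), with GGAG in capitals in the hairpins and the seed (bases 2 to 8) in capitals in the mature strands. The let-7g hairpin lies at chr9:106178840-106178927 on the plus strand and the let-7d hairpin at chr13:48536012-48536114 on the minus strand.
let-7g hairpin: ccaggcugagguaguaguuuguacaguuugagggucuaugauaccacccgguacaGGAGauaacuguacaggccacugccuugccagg
let-7d hairpin: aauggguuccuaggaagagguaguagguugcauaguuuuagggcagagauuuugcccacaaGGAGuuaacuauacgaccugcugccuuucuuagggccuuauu
let-7g-5p: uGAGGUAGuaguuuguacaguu
let-7d-5p: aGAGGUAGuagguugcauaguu
Both mature strands have the same seed. GGAG, searched on the transcribed strand, was in 9 of 11 let-7 hairpins (81.8%) and in 44.5% of all 1005 mouse hairpins of the table.

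Reads on let-7 features were very few. The primary transcripts of let-7d, let-7g and let-7i together had 7 and 6 reads in the crosslinked inputs, 0 and 2 after pull-down from crosslinked cells and none in either non-crosslinked library. No mature let-7 feature is listed with a read, out of 536 miRNA features that are. The let-7 features were looked up after earlier results of these data were known and were too few in reads for a test.

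Lin28a exons had 26.6 and 20.3 RPM in the crosslinked inputs, 16.3 and 17.6 RPM in the crosslinked pull-downs, 18.8 RPM in the input without crosslinking and 12.3 RPM in its pull-down. Both crosslinked pull-downs were below both inputs. The means were 23.5 ± 4.47 and 17.0 ± 0.886 RPM (SD, n = 2 each), a 0.770-fold ratio (95% interval 0.619 to 0.959) that missed the threshold (adjusted p = 0.137 by edgeR). Across the tested exon sums, 20.4% had a lower log2 ratio.

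Lin28a introns had 13.3 and 13.8 RPM in the crosslinked inputs, against 12.8 and 13.4 RPM in their pull-downs, so the groups overlapped and the values differed little between replicates. With identical features counted once the level was 7.33 and 7.81 RPM in the inputs and 7.23 and 7.62 RPM in the pull-downs. The fitted log2 ratio was 0.05 (SE 0.14, adjusted p = 0.867 by edgeR), and it turned to -0.045 with all reads as library sizes and to -0.0062 without pull-down replicate 2. Without crosslinking the intron level was much lower, at 4.62 RPM in the input and 3.72 RPM in the pull-down. The pre-mRNA feature held 39 and 20 reads in the crosslinked inputs, and 17 and 15 after pull-down (log2 -0.62, SE 0.37, adjusted p = 0.322 by edgeR). As a single feature it was called lower when input replicate 2 was left out (log2 -1.05, adjusted p = 0.0226 by edgeR), as were 5.37% of all tested features in that fit. There the higher input stands alone and is assumed to vary like the pull-downs, and without input replicate 1 the log2 ratio was -0.040 (adjusted p = 0.982 by edgeR).

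Lin28b exons had 8.88 and 10.8 RPM in the crosslinked inputs, 8.35 and 7.69 RPM in the crosslinked pull-downs, 7.63 RPM in the input without crosslinking and 3.30 RPM in its pull-down. The crosslinked pull-downs lay below both inputs by a small step (0.866-fold, 95% interval 0.682 to 1.10, adjusted p = 0.441 by edgeR), and the non-crosslinked pull-down was at 0.438 of its input (95% counting interval 0.301 to 0.627).

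Lin28b introns carried the most reads of any member sum in the crosslinked libraries. They had 39.1 and 40.1 RPM in the crosslinked inputs, 32.1 and 26.5 RPM in the crosslinked pull-downs, 25.5 RPM in the input without crosslinking and 9.54 RPM in its pull-down. The ratio with crosslinking was 0.786-fold (95% interval 0.649 to 0.953, adjusted p = 0.118 by edgeR), and with all reads as library sizes it passed the threshold (adjusted p = 0.0470). With exon, intron and pre-mRNA reads as library sizes the log2 ratio was -0.25 (adjusted p = 0.264 by edgeR), with TMM factors -0.19 (adjusted p = 0.506) and with DESeq2 also -0.19 (adjusted p = 0.9997). The non-crosslinked ratio was 0.374 (95% counting interval 0.303 to 0.459), and 3.17% of all tested intron sums had a lower non-crosslinked value. The pre-mRNA feature of Lin28b, with 3 to 12 reads in a library, was not tested at the minimum of 1 RPM.

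Sall4 was close to the floor of the experiment. Its exons had 1.15 and 0.869 RPM in the crosslinked inputs, 0.907 and 0.548 RPM in the crosslinked pull-downs, 1.34 RPM in the input without crosslinking and 0.835 RPM in its pull-down. Its introns had 0.648 and 0.593 RPM in the crosslinked inputs and 0.954 and 0.828 RPM in the crosslinked pull-downs, so that both pull-downs were above both inputs, as in 13.1% of the tested intron sums (10.6% over all classes). These are 8.67 to 20 exon reads and 10.9 to 15.4 intron reads in a crosslinked library. With identical features counted once, Sall4 introns had 0.367 and 0.396 RPM in the inputs and 0.604 and 0.535 RPM in the pull-downs. No Sall4 sum entered the test at the minimum of 1 RPM, and at this depth a change of this size cannot be told from counting error. With a minimum of 0.5 RPM, which Sall4 exons and introns pass, 15 member sums were tested and 0 were called.

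Dnmt3b exons had 8.64 and 7.45 RPM in the crosslinked inputs, 7.70 and 5.96 RPM in the crosslinked pull-downs, 6.54 RPM in the input without crosslinking and 3.34 RPM in its pull-down. The crosslinked groups overlapped (log2 -0.15, SE 0.17, adjusted p = 0.632 by edgeR), and the sign turned with TMM factors (log2 0.017), with DESeq2 (log2 0.016) and without pull-down replicate 2 (log2 0.015). The non-crosslinked ratio was 0.508 (95% counting interval 0.347 to 0.735). With identical features counted once, the crosslinked inputs had 2.31 and 2.15 RPM and the crosslinked pull-downs 2.42 and 1.63 RPM (log2 -0.042, SE 0.24, adjusted p = 0.930 by edgeR).

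Dnmt3b introns had 23.6 and 19.8 RPM in the crosslinked inputs, 16.4 and 13.7 RPM in the crosslinked pull-downs, 8.96 RPM in the input without crosslinking and 4.39 RPM in its pull-down. With all features summed, this was the lowest adjusted p among the members (0.740-fold, 95% interval 0.599 to 0.915, adjusted p = 0.0806 by edgeR). With all reads as library sizes, which moved the median of all sums by -0.091, the sum was called lower (adjusted p = 0.0319). With exon, intron and pre-mRNA reads as library sizes the adjusted p was 0.158, with TMM factors it was 0.311 (log2 -0.27) and with DESeq2 0.997. Of the tested intron sums, 7.88% had a lower log2 ratio. With identical features counted once, Dnmt3b introns had 3.88 and 3.25 RPM in the crosslinked inputs (log2 -0.40, SE 0.20, adjusted p = 0.244 by edgeR). In that fit Lin28b introns had the lowest adjusted p of the members (0.124). The pre-mRNA feature had 3.69 and 3.12 RPM in the inputs and 3.10 and 1.96 RPM in the pull-downs (adjusted p = 0.429 by edgeR).

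**Figure D2:**
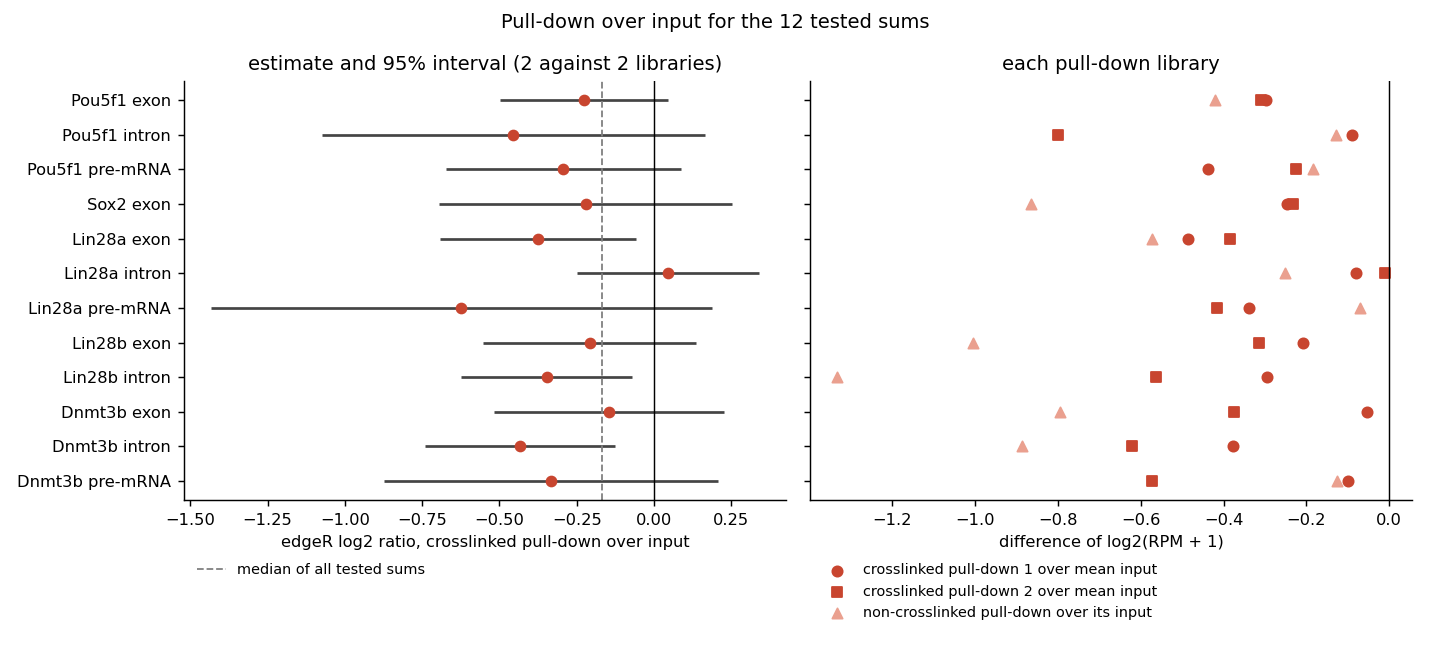
Left, edgeR log2 ratio of crosslinked pull-down over input with its 95% interval for the 12 tested sums, with the median of all 20557 tested sums dashed at -0.17. Right, differences of log2(RPM + 1) for each crosslinked pull-down against the mean input and for the non-crosslinked pull-down against its input; 11 of 12 estimates on the left lie below 0, as do all 12 non-crosslinked points on the right.

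Most of the 12 tested sums, like most of all tested sums, had a log2 ratio below 0. The fitted log2 ratio was below 0 for 11 of 12 and ran from -0.62 to 0.05 with a median of -0.31, while 70.4% of all tested sums were below 0 with a median of -0.17. With TMM factors 10 of 12 were below 0, and the median moved to -0.15 for the members and to -0.01 for all sums, a shift of 0.16 in all sums. Both pull-downs were below both inputs in 8 of the 12 sums and overlapped them in the other 4, beside 51.8% of all tested sums below (51.4% of intron sums and 75.9% of pre-mRNA sums). By class, medians were -0.22 for the 5 exon sums, -0.39 for the 4 intron sums and -0.33 for the 3 pre-mRNA sums, beside -0.13, -0.14 and -0.52 for all sums of those classes.

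Without crosslinking the pull-down was below the input for all 12 sums, as were 79.1% of all tested sums. The counting interval of the ratio included 1 for the introns of Pou5f1 and Lin28a and the pre-mRNA features of Pou5f1, Lin28a and Dnmt3b. As log2(RPM + 1), a scale that shrinks differences at few reads, the differences ran from -1.33 to -0.07 with a median of -0.50, beside -0.37 over all sums. In 8 of the 12 the non-crosslinked value was below the crosslinked one, against 68.0% of all sums. The exceptions were the introns of Pou5f1 and the pre-mRNA features of Pou5f1, Lin28a and Dnmt3b. By class, the non-crosslinked value was the lower one in 64.7% of all tested exon sums, 81.1% of intron sums and 30.2% of pre-mRNA sums. With 1 library in each non-crosslinked group, none of these differences was tested.

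**Figure D3:**
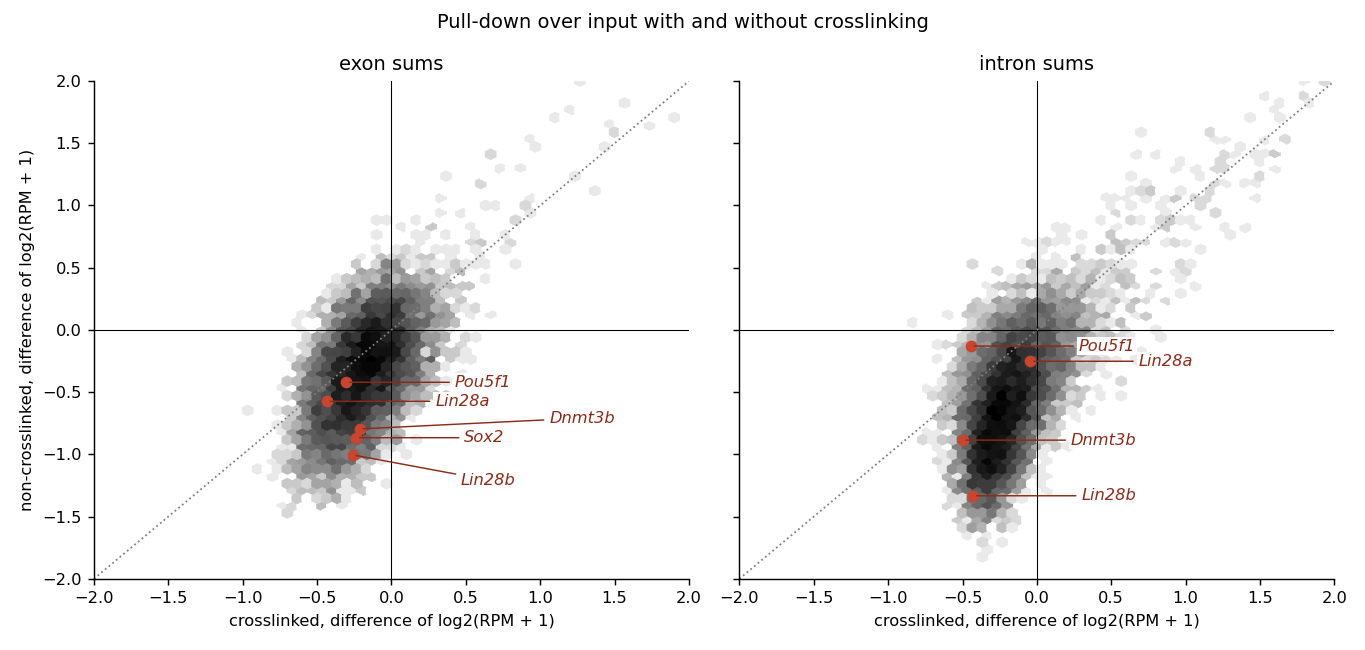
Difference of log2(RPM + 1) between pull-down and input with crosslinking (horizontal, means of 2 libraries) and without (vertical, 1 library each) for tested exon sums (left) and intron sums (right), with darker cells holding more genes on a log colour scale, the dotted line marking equal values and sums beyond 2 on either axis not drawn. The tested members lie below 0 on both axes; Lin28b introns are lowest without crosslinking at -1.33.

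Levels of different genes were set side by side per kb of the gene's span in RefSeq (GRCm38.p6, the assembly that mm10 names), which includes introns and so lowers genes with long introns. Pou5f1 (chr17:35506032-35510777) was highest in the crosslinked inputs, at 9.10 ± 0.924 RPM per kb (SD, n = 2). Lin28a (chr4:134003330-134019196) at 2.44 ± 0.309 and Sox2 (chr3:34649995-34652461) at 2.43 ± 0.811 RPM per kb followed and did not differ beyond their spread. Since these are bulk cultures, fewer cells with a transcript and less RNA per cell cannot be told apart. Dnmt3b (chr2:153649411-153687730) had 0.866 ± 0.102, Lin28b (chr10:45376617-45486314) 0.457 ± 0.0181 and Sall4 (chr2:168748332-168767201) 0.0862 ± 0.0124 RPM per kb. Apart from Lin28a and Sox2, the gap between neighbours in this order was larger than either SD. The place of Dnmt3b rests on summing features that hold the same counts, which stand for its many isoforms. With identical features counted once, Dnmt3b had 0.240 ± 0.0251 RPM per kb, below Lin28b at 0.389 ± 0.0149, and its exon sum in crosslinked input 1 went from 8.64 to 2.31 RPM and its intron sum from 23.6 to 3.88 RPM. Counted in this way, Lin28a had 2.04 ± 0.317 RPM per kb and stood below Sox2 at 2.43 ± 0.811, by less than the SD of Sox2.

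The members differed in where along the gene their reads lay. Of all Pou5f1 reads, exon features held 76.6% and 75.7% in the crosslinked inputs (95% Wilson intervals 73.6% to 79.4% and 72.5% to 78.7%), and of Lin28a reads 63.2% and 57.7%. Lin28b, whose span of 109698 bp is the longest of the members, had 18.2% and 21.0% of its reads in exon features, and Dnmt3b 24.0% and 24.5%. Exon reads were 9.10 and 9.64 times intron reads for Pou5f1 in these inputs, 2.01 and 1.47 times for Lin28a, 0.366 and 0.376 times for Dnmt3b and 0.227 and 0.269 times for Lin28b. With identical features counted once these ratios were 3.59 and 2.54 for Lin28a and 0.595 and 0.662 for Dnmt3b, and exon features held 73.3% and 69.1% of Lin28a reads.

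Intron levels differed more between crosslinked and non-crosslinked inputs than exon levels did for Pou5f1, Lin28a and Dnmt3b, whose counting intervals for exons and introns did not overlap, while those of Lin28b did. The non-crosslinked input held 0.339 of the crosslinked input level for Lin28a introns (95% counting interval 0.258 to 0.440), 0.414 for Dnmt3b introns (0.341 to 0.501), 0.443 for Pou5f1 introns (0.268 to 0.700) and 0.645 for Lin28b introns (0.574 to 0.725). For exons the same ratio was 0.958 for Pou5f1 (0.857 to 1.07), 1.07 for Sox2 (0.824 to 1.37), 0.804 for Lin28a (0.698 to 0.924), 0.774 for Lin28b (0.618 to 0.962) and 0.819 for Dnmt3b (0.641 to 1.04). The whole libraries had lower exon and intron shares without crosslinking, as given above, and with 1 non-crosslinked input the contrast has no replicate check.

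For Pou5f1, Lin28a and Lin28b, most exon reads fell in 1 or 2 features. Lin28a_exon4_4, named in the files by gene, exon number and isoform, held 90.6% and 87.3% of Lin28a exon reads in the crosslinked inputs and 90.6% and 85.7% in the pull-downs. Lin28b_exon5_3 held 83.2% and 79.9% in the inputs and 69.9% and 74.2% in the pull-downs, so that its share was lower in both pull-downs. These shares are 129 of 155 and 159 of 199 reads in the inputs and 94 of 134.5 and 90.3 of 121.7 in the pull-downs. The difference in share was not tested. Pou5f1_exon1_1 held 41.8% and 41.9% of Pou5f1 exon reads in the inputs and 45.4% and 43.3% in the pull-downs, and Pou5f1_exon5_1 held 36.03% and 35.06% against 27.4% and 35.1%. No exon feature of Dnmt3b held more than 11.4% of its exon reads in any library, and those reads were spread over 217 exon features of many isoforms, 31 of them with distinct counts. Dnmt3b_exon20_5, 1 of 9 features with the same counts, held 5.12% and 5.48% in the crosslinked inputs. The share of a single Dnmt3b feature therefore depends on this repetition.

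**Figure D4:**
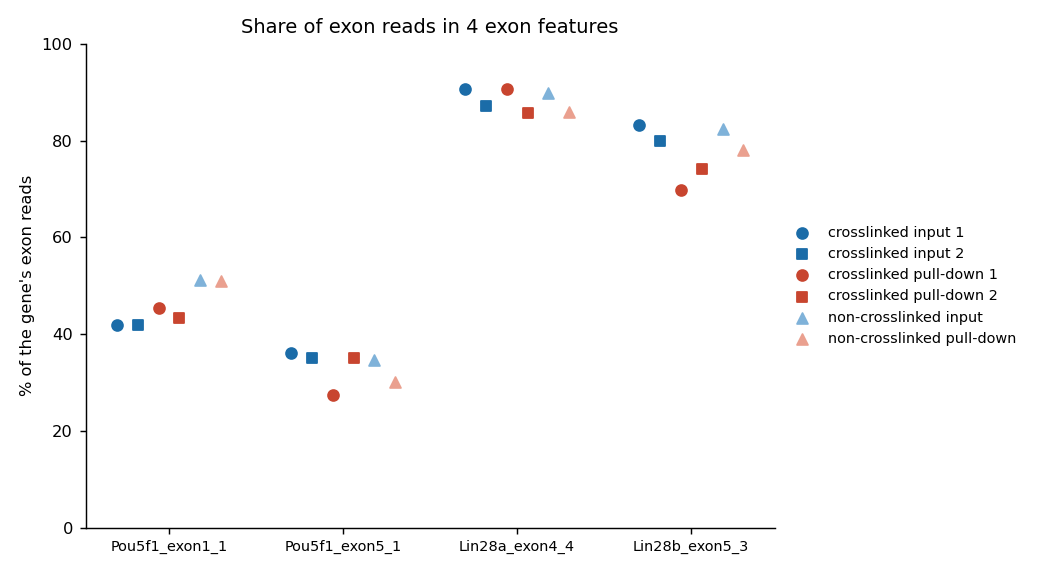
Percent of a gene's exon reads that fell in each of 4 exon features of Pou5f1, Lin28a and Lin28b, with 1 point per library. Lin28a_exon4_4 held 85.7% to 90.6% of Lin28a exon reads in all 6 libraries, and Lin28b_exon5_3 was lower in the crosslinked pull-downs (69.9% and 74.2%) than in the crosslinked inputs (83.2% and 79.9%), a difference that was not tested.

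Of the 549 features, 20 were frequent enough to be tested singly, and none was called, beside 6.44% of 39872 tested features called higher and 3.50% called lower. With no adjustment, 0 passed 0.05 in the higher direction and 3 in the lower (Lin28b_intron1_3, Pou5f1_intron1_1 and Lin28b_intron4_1), against 8.42% and 14.4% of all tested features, and the lowest adjusted p was 0.102 by edgeR. Lin28b_exon5_3 went from 7.39 and 8.63 RPM to 5.83 and 5.71 RPM with no overlap (log2 -0.39, adjusted p = 0.221 by edgeR). Lin28a_exon4_4 went from 24.1 and 17.7 RPM to 14.8 and 15.1 RPM (log2 -0.39, adjusted p = 0.300 by edgeR). Lin28b_intron4_1, the most frequent intron feature, had 15.9 RPM in both inputs and 11.5 and 11.2 RPM in the pull-downs (log2 -0.39, adjusted p = 0.181 by edgeR).

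Pou5f1_intron1_1 had 2.72 and 2.31 RPM in the crosslinked inputs and 1.77 and 0.861 RPM in the crosslinked pull-downs (log2 -0.81, adjusted p = 0.169 by edgeR). Without pull-down replicate 1 it was called lower (log2 -1.39, adjusted p = 0.0218 by edgeR), as were 2.80% of all tested features in that fit. There the lower pull-down stands alone and is assumed to vary like the inputs, and without pull-down replicate 2 the log2 ratio was -0.40 (adjusted p = 0.566 by edgeR). Lin28a_intron1_4, one of a pair of features with the same counts, had 5.26 and 5.35 RPM in the inputs and 4.87 and 5.27 RPM in the pull-downs, with overlap.

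Both Lin28 genes also name a piRNA cluster feature, a genomic stretch annotated as a source of piRNAs. Lin28a.1 had 30 and 28 reads in the crosslinked inputs, 25 and 19 after pull-down from crosslinked cells, 21 in the non-crosslinked input and 5 in its pull-down. With crosslinking the log2 ratio was -0.14 (adjusted p = 0.800 by edgeR), and without it the ratio was 0.256 (95% counting interval 0.0754 to 0.697). Lin28b.1 had 9 and 4 reads in the inputs, 4 and 3 in the pull-downs and 3 in each non-crosslinked library.

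The wider pluripotency network was read from a list of 48 further genes. Of its exon sums 30 were tested, with 1 called higher, 1 called lower and a median log2 ratio of -0.17, beside 4.17% higher, 2.48% lower and a median of -0.13 over all exon sums. Of its intron sums 26 were tested, with 1 higher, 0 lower and a median of -0.14, beside 6.80% higher and 1.32% lower over all intron sums. Of its pre-mRNA sums 8 were tested, with 0 higher, 1 lower and a median of -0.40, beside 0.508% higher and 11.6% lower over all. Pou3f1, a POU-domain factor, rose in its exons from 1.67 and 1.41 RPM to 2.51 and 3.16 RPM (log2 0.97, adjusted p = 0.0395 by edgeR), and was higher in the non-crosslinked pull-down too (3.09 against 1.38 RPM).

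Nr5a2, a nuclear receptor, rose in its introns from 0.524 and 0.484 RPM to 1.24 and 1.88 RPM (log2 1.72, adjusted p = 0.0119 by edgeR), and stood at 0.9003 against 0.237 RPM without crosslinking. It reached the minimum of 1 RPM only through the pull-downs, so that it could enter the test only as a sum that was higher there. Rif1, a regulator of replication timing and of DNA break repair, fell in its exons from 35.3 and 33.3 RPM to 23.5 and 22.1 RPM (log2 -0.50, adjusted p = 0.0217 by edgeR) and in its pre-mRNA feature (log2 -0.72, adjusted p = 0.0376 by edgeR). The highest exon levels of the list in the inputs were those of Rif1 (34.3 ± 1.37 RPM), Jarid2 (26.1 ± 1.26 RPM) and Trim71 (24.9 ± 4.68 RPM; SD, n = 2 each). Nanog exons, by contrast, had 0.687 and 0.529 RPM, and 8 of the 47 listed genes with exon reads had at most 3 in every input.

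The label of the cells was checked against markers. All 4 embryonal carcinoma markers outside the members (Tdgf1, Utf1, L1td1 and Trim71) had exon reads in every library. They summed to 44.7 and 31.8 RPM in the crosslinked inputs, mostly Trim71 with 28.2 and 21.6 RPM. Utf1 had 2.46 and 1.63 RPM there, below the fibroblast marker Dcn at 2.63 and 2.12 RPM. Tdgf1, L1td1 and Trim71 stood above Dcn in both. The 4 markers belong to the wider list above, in which 8 of 47 genes with exon reads had at most 3 in every input. All 5 germ cell markers had at most 3 exon reads in every input, as did 3 of 4 trophoblast, 5 of 8 mesoderm and endoderm, 2 of 4 fibroblast and 3 of 7 neural markers. Neural markers summed to 13.2 and 11.6 RPM in the crosslinked inputs, mostly Map2, Sox1 and Tubb3, and fibroblast markers to 3.04 and 2.55 RPM, mostly Dcn. Mesoderm and endoderm markers summed to 1.08 and 1.27 RPM in the crosslinked inputs and to 4.61 and 4.68 RPM in the pull-downs, led by Gata6 with 0.310 and 0.615 RPM against 3.13 and 3.0014 RPM. Gata6, the only one of the 8 exon sums that was tested, was called higher (log2 2.85, adjusted p = 8.29e-05 by edgeR), but it reached the minimum of 1 RPM only through the pull-downs. Without crosslinking these markers summed to 0.514 RPM in the input and 3.50 RPM in the pull-down, with Gata6 at 0.0707 and 2.27 RPM. Their part in the members' values was not tested.

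The exon profile of each member over the 6 libraries was close to that of many genes. Among 2512 genes with an exon mean of at least 5 RPM, the nearest by Pearson r of log2(RPM + 1) were Zfp106 for Pou5f1 (r = 0.996), Marcks for Sox2 (0.984), Rdx for Lin28a (0.993), Dbf4 for Lin28b (0.993) and Tulp4 for Dnmt3b (0.995). Correlations of at least 0.9 were found with 64 genes for Sox2 and with 893 for Dnmt3b. The points share library and depth, and Sall4 was too low to be entered.

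The authors' deposited table gives 1 enrichment ratio per feature, with a formula that is not stated and whose values differ in direction from the RPM ratios here for some members. In the authors' deposited table the ratio was 1.23 for the Sox2 exon, 1.05 and 0.847 for Pou5f1_exon1_1 and Pou5f1_exon5_1, 0.838 for Lin28a_exon4_4 and 1.20 for Lin28b_exon5_3. In all, the authors' deposited table has 6 of 7 Lin28a exon features above 1 (median 1.33) and 6 of 20 Pou5f1 exon features (median 0.685), beside 67.0% of all exon features listed. For Dnmt3b the authors' deposited table lists 22 exon features, all above 1 with a median of 2.80, beside a median of 1.32 over all 48456 exon features listed. Only 31 of the 217 Dnmt3b exon features here have distinct counts, so the 22 need not be separate observations. The most frequent, Dnmt3b_exon1_12, had 9.18 and 9.27 reads in the crosslinked inputs and 14.2 and 6 in the crosslinked pull-downs. For Sall4 it lists 7 intron features between 1.83 and 10.4, which here rest on the few reads given above, while in the authors' deposited table the median over all 156687 intron features listed is 1.39 and 78.5% are above 1. Of the other members, the authors' deposited table has 7 of 8 Lin28b intron features above 1 (median 1.26) and 47 of 77 for Dnmt3b (median 1.14). For Lin28a introns it has 4 of 7 above 1 (median 1.32) and for Pou5f1 introns 1 of 2 (median 0.750).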

How the data were processed

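The files hold, per library, an expected count and an RPM value per annotated feature that the authors deposited. Per the submitters' processing notes, bcl2fastq 2.19, STAR 2.5.2b, bedtools 2.29.0 and mm10 were used. Strand use, the annotation and removal of PCR duplicates are not given in the sources used here, so overlapping and antisense genes cannot be told apart. The authors' deposited RPM values are scaled to all reads of a library, and the deposited enrichment ratio has no stated formula. Whether molecular identifiers were used is not given either, so intervals from counts and floors of 3 reads cover counting error only.

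Isoform features of a gene often hold identical deposited expected counts, and how the authors divided a read among features is not given in the sources used here. Summing all features gave whole exon sums (within 0.001 reads) for 75.8% of 7409 genes with identical features, against 11.0% when identical features were counted once, and whole intron sums for 12.7% of 8412 genes against 2.10%, so that most intron sums were not whole either way. Counting once kept 79.9% of exon reads and 53.7% of intron reads in crosslinked input 1. All features were therefore summed, and counting identical features once, which had been planned, became an alternative after the files were seen.

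Rounded sums that averaged 1 RPM or more in the 4 crosslinked libraries were tested in edgeR 4.0.16 (R 4.3.3) by quasi-likelihood, with annotated reads as library sizes and Benjamini-Hochberg adjustment over all sums. SEs were taken from the log2 ratio and its F value. Non-crosslinked ratios have exact binomial intervals of the 2 counts. The test was checked on simulated data. Alternatives were other filters and library sizes, TMM factors, DESeq2 1.42.0, limma 3.58.1 on log2(RPM + 1), a replicate block and leaving out libraries. Named features were the 3 most frequent exons and introns of a member. Single features with the lowest p, the let-7 and piRNA cluster features and Nanog were chosen after their values were seen. Members and lists were chosen with earlier results of these data known.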

Additional observations from a re-analysis of the deposited data

Results flagged for a closer look

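In 2 sums the crosslinked pull-downs moved one way against the inputs and the non-crosslinked pull-down the other, on the log2(RPM + 1) scale. The difference was not tested in either. The Lin28b pre-mRNA feature was at 0.26 without crosslinking and at -0.27 with it, and rests on 12 and 11 reads in the crosslinked inputs, 3 and 9 after pull-down from crosslinked cells, 3 in the non-crosslinked input and 6 in its pull-down. The Sall4 intron sum was at -0.036 without crosslinking and at 0.22 with it, on 5.20 to 15.4 reads in a library.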

How the results depend on the processing

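Across the 15 or 16 alternatives that gave each a value, the log2 ratios of the 12 tested member sums kept their direction and side of the threshold in 172 of the values, passed the threshold in 9 and turned in 8. Without single libraries the log2 ratio of Sox2 exons ran from -0.52 to 0.15 (turning without input replicate 1), that of Lin28a introns from -0.0062 to 0.095 (turning without pull-down replicate 2) and that of Dnmt3b exons from -0.33 to 0.015 (turning without pull-down replicate 2). Lin28a introns also turned to -0.0455 with all reads as library sizes and to -0.0451 and -0.0467 with limma on log2(RPM + 1) and log2(RPM + 0.5). Dnmt3b exons turned to 0.0166 with TMM factors and to 0.0158 with DESeq2. Member sums called lower numbered 2 with all reads as library sizes and 2 with each limma fit (Dnmt3b and Lin28b introns), and 0 when identical features were counted once. The labels do not say that the replicate numbers of inputs and pull-downs mark a shared lysate, and replicate differences correlated at 0.132 over 20557 sums. With the number as a replicate block 3 member sums were called lower, Dnmt3b introns (log2 -0.43, adjusted p = 0.008), Lin28b introns (-0.35, 0.0203) and Lin28a exons (-0.37, 0.0320), and over all sums 2344 were lower and 1282 higher.

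Over all sums, 1013 were called higher and 632 lower, 61.6% of calls higher. Sums called lower numbered 247 with TMM factors (83.8% of calls higher), 66 with DESeq2 (92.8%), 1842 with all reads as library sizes (35.4%), 356 with exon, intron and pre-mRNA reads as library sizes (76.2%), 1849 and 1835 with limma at pseudocounts of 1 and 0.5 RPM, 309 with 1 sum per gene and 97 with no filter. A mean of at least 5 RPM left 333 higher and 266 lower. Leaving out 1 library gave 195 to 949 sums called lower, 0 to 1 member features called lower, and 832 to 2141 of all features called lower. Of single features, 4185 were higher with a mean of at least 0.5 RPM and 627 lower with TMM factors.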
